A study of Mus musculus with 14 samples.

Results

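The genes described here are 35 that carry fatty acid oxidation in the liver and its control by the nuclear receptor PPARalpha, out of 57180 genes in the deposited table. They were chosen by gene symbol, and all 35 symbols were found. They fall into 8 compartments by role: the signal (Ppara, Creb3l3, Fgf21, Angptl4), uptake and activation (Cd36, Slc27a2, Fabp1, Acsl1, Plin2), mitochondrial entry (Cpt1a, Slc25a20, Cpt2), the mitochondrial spiral (Acadvl, Acadl, Acadm, Acads, Hadha, Hadhb, Hadh, Acaa2, Decr1, Eci1), electron transfer (Etfa, Etfb, Etfdh), the peroxisome (Ehhadh, Acaa1a, Acaa1b, Eci2), acyl-CoA thioesterases (Acot1, Acot2, Acot3, Acot4) and the fuel switch (Pdk4, Vnn1). Enough reads for testing were present for 34 of the 35. Fgf21 was too low for the filter of the main edgeR fit.

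PPARalpha binds fatty acids, pairs with the retinoid X receptor on DNA, and is best known in the liver as the receptor that turns on fat burning during fasting. Fatty acids are activated to acyl-CoA esters, carried into the mitochondrion on carnitine, and shortened step by step by dehydrogenation, hydration, a further dehydrogenation and thiolysis. Peroxisomes run a related spiral on very long and branched chains, and the acetyl-CoA that the liver does not burn is made into ketone bodies.

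RNA was sequenced from whole livers of 14 mice on normal chow, 1 liver per library, and the groups were Homo (4 livers), Het (4 livers) and WT (6 livers) for Pkd1, the gene of polycystin 1. All 3 groups were littermates whose labels carry Cre. The labels state neither which Pkd1 allele was used nor which promoter drove Cre, so the cell types with the altered gene are unknown here, and sex, age, litter, feeding state and hour of collection are not given. Levels are CPM, counts divided by library size after a correction for library composition, and they do not tell fewer cells of a type from less RNA per cell.

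The libraries held between 18573739 counts (Homo 4) and 40925973 counts (WT 3). Pkd1 itself averaged 25.3 ± 1.51 CPM in Homo livers (SD, n = 4), 32.2 ± 3.52 CPM in Het livers (n = 4) and 34.8 ± 2.77 CPM in WT livers (n = 6), with a Homo over WT adjusted p of 0.0246 in edgeR (0.131 without Homo 1). These are whole-gene counts, so they do not single out a deleted exon. Hepatocyte markers (Alb, Apoa1, Ttr and others) summed to 52346 ± 12435 CPM in Homo livers, 48718 ± 4086 CPM in Het livers and 51756 ± 7527 CPM in WT livers, whereas adipocyte markers summed to at most 0.358 CPM in any liver. Among the oxidation genes WT 4 was the highest liver far more often than any other, and results that rest on it are also given without it.

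The 34 tested genes span a wide range of abundance. Per kilobase of transcript, Fabp1, the fatty acid carrier of the hepatocyte cytosol, was the most abundant at 5454 CPM per kb in WT livers, and Slc27a2, an acyl-CoA synthetase and transporter for very long chains, came next at 331 CPM per kb. Ppara stood at 42.3 CPM per kb in the same livers, while Pdk4, the kinase that shuts pyruvate dehydrogenase, was at 0.585 CPM per kb. Most of the genes varied little among mice of a genotype. The median coefficient of variation over the 34 genes was 11.8% in Homo livers, 10.4% in Het livers and 10.3% in WT livers. The thioesterases, Vnn1 and Angptl4 were the exceptions among WT livers, with coefficients above 30% in 6 genes.

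Most fatty acid oxidation genes had a slightly lower point estimate in Homo livers than in WT livers. Of the 34 genes tested, 31 had a fold below 1, against 49.4% of all 16201 genes tested, with a median of -0.15 on the log2 scale, against 0.00 over all genes. No gene of the 34 passed an adjusted p of 0.05 in edgeR, where 0.222% of all genes passed, and none passed in DESeq2. At an unadjusted p under 0.05, edgeR counted 12 of the 34, and 4.73% of all genes. DESeq2 was run on all 38858 genes with at least 1 count, Fgf21 among them. It counted 12 of 35, and 2.39% of all its genes. That wider set includes barely detected genes, so the DESeq2 shares here and below are not comparable with those of edgeR. The 12 in edgeR were 11 lower genes and 1 higher gene (Cd36), where 2.09% of all genes were lower and 2.64% higher at that level. The 11 lower genes were Eci1, Decr1, Acadm, Acadl, Acaa2, Cpt2, Acaa1b, Eci2, Ehhadh, Vnn1 and Slc27a2. The smallest adjusted p among them was 0.778, so no single gene of the set passed.

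**Figure D1:**
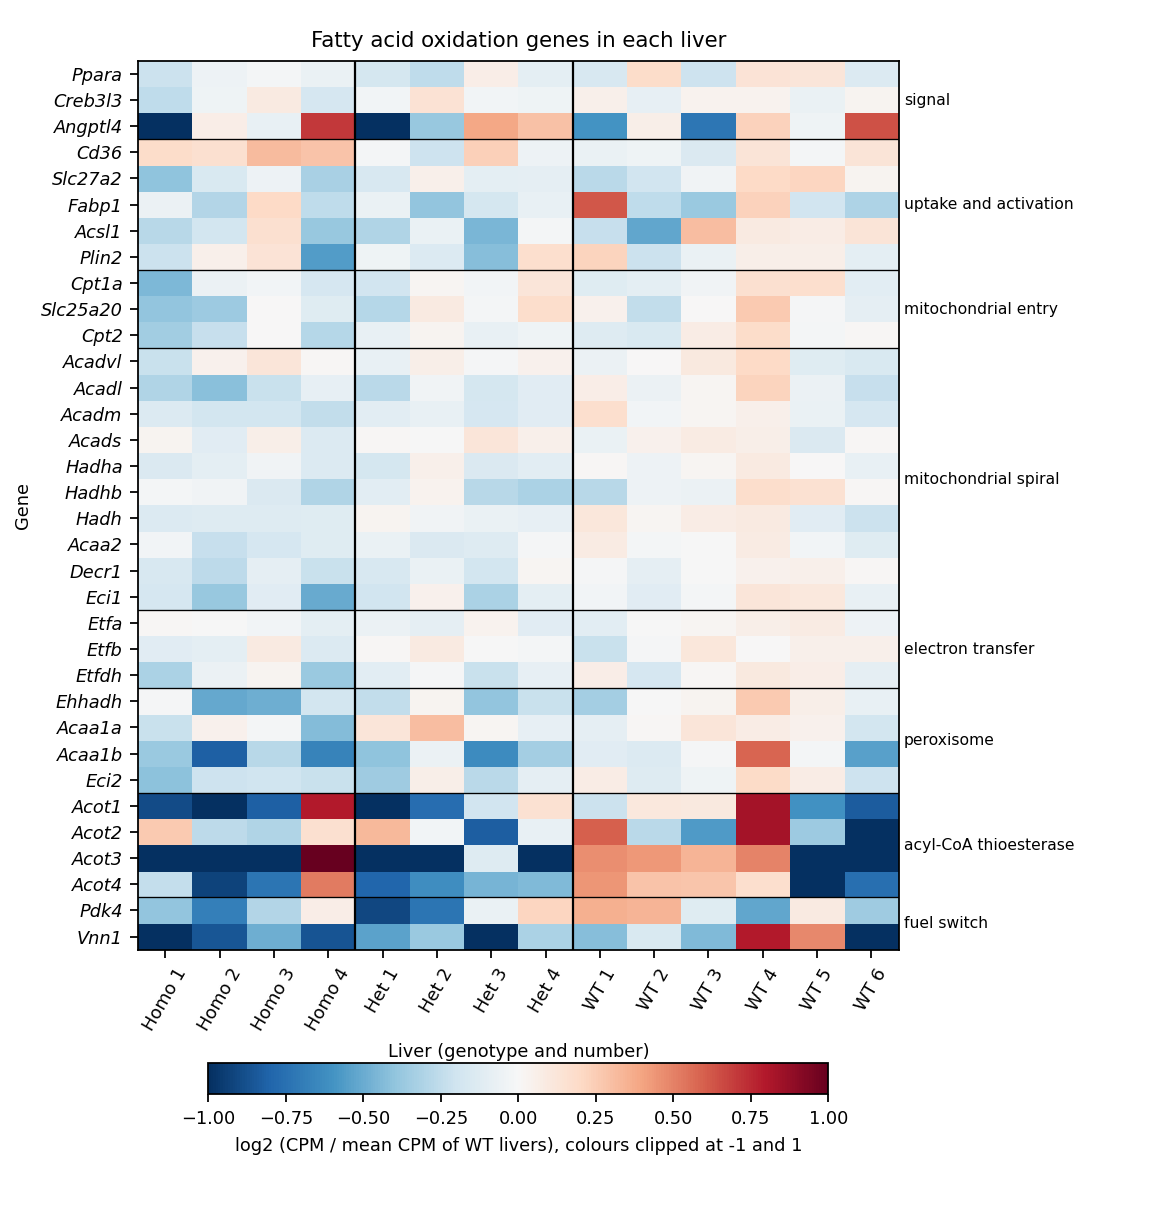
Each cell is the log2 ratio of a gene's CPM in 1 liver (columns) to its mean CPM in WT livers, for the 34 tested genes (rows, grouped by compartment), with colours clipped at -1 and 1. Homo and Het livers are mostly pale blue in the mitochondrial and peroxisomal rows, while WT 4 is red or pale red in 33 of 34 rows.

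**Figure D2:**
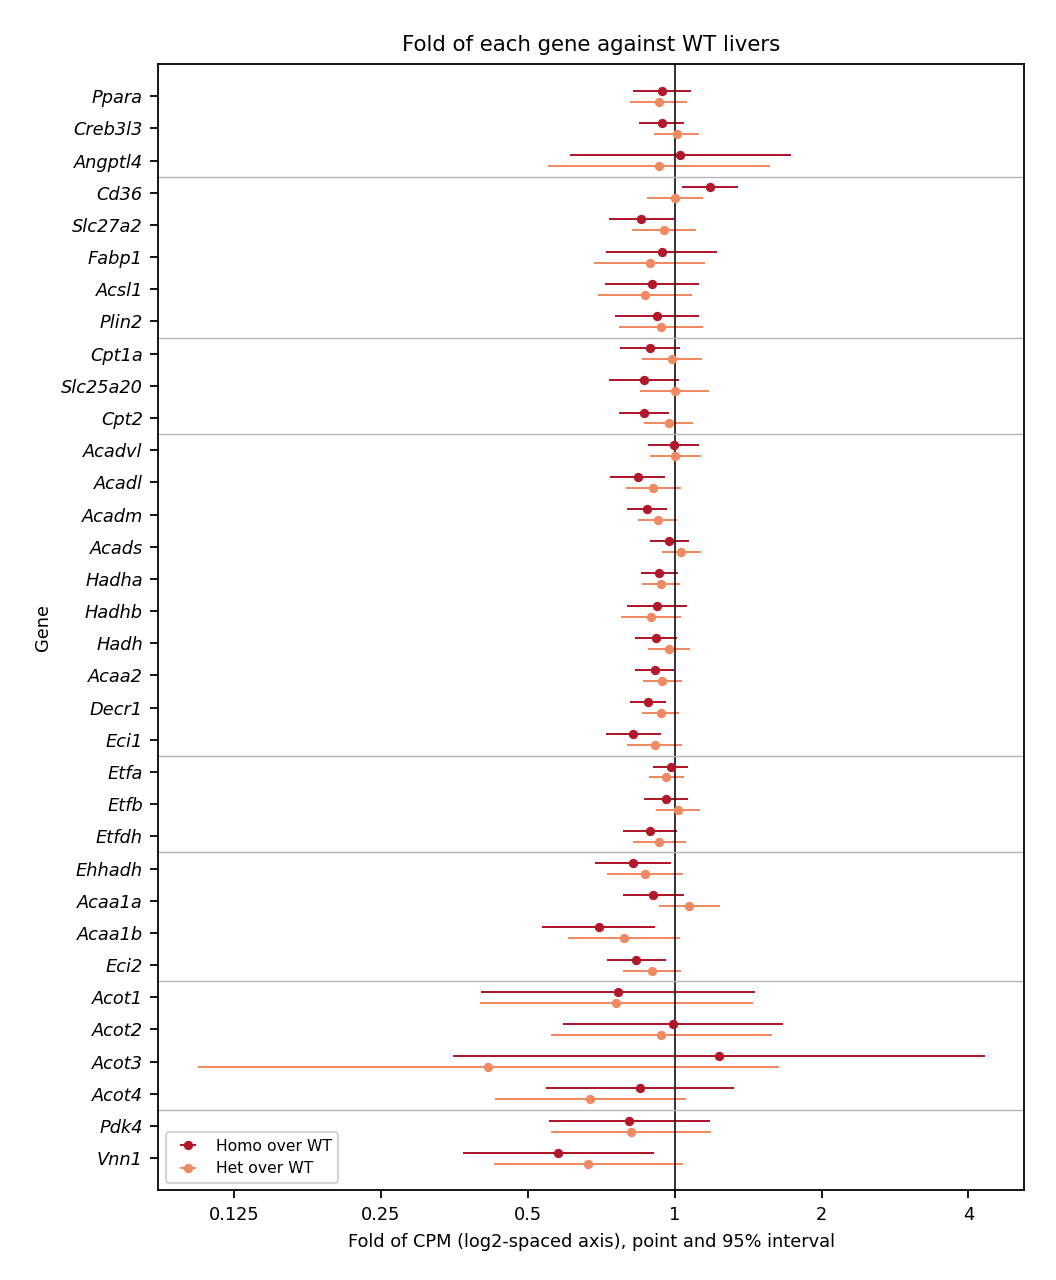
Points are folds over WT livers (log2-spaced axis) for Homo livers (dark red) and Het livers (orange), and bars are 95% intervals from edgeR. For Homo over WT, 31 of 34 points lie left of 1, and for Het over WT 28 of 34 do, and the widest bars belong to the thioesterases.

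None of the 3 tested signal genes had an unadjusted p under 0.05 in edgeR for Homo or Het over WT. Ppara, the receptor, was at 92.0, 103, 105 and 102 CPM in the 4 Homo livers and at 94.5, 89.6, 112 and 99.5 CPM in the 4 Het livers, against a lowest, median and highest value of 92.6, 106 and 121 CPM in WT livers. The groups overlapped throughout, and the fold was 0.942 for Homo over WT (95% interval 0.823 to 1.08) and 0.927 for Het over WT (0.810 to 1.06). Creb3l3, the membrane-bound factor that works with PPARalpha on fasting genes, had folds of 0.940 (Homo over WT) and 1.01 (Het over WT). Angptl4, a secreted inhibitor of lipoprotein lipase, ran from 24.3 to 82.1 CPM in Homo livers, from 20.5 to 65.9 CPM in Het livers and from 30.4 to 78.0 CPM in WT livers. The ranges overlapped widely, and the intervals were wide too. Its fold was 1.03 for Homo over WT (95% interval 0.610 to 1.73) and 0.929 for Het over WT (0.551 to 1.57).

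Fgf21, the fasting hormone of the liver, was barely detected. It had 8, 14, 8 and 5 estimated counts in Homo livers, 2, 0, 3 and 4 in Het livers, and 15, 5, 4, 7, 7 and 0 in WT livers. Every Homo liver lay above every Het liver in CPM, where 2.94% of all tested genes had groups that did not overlap. The counts came as close as 5 in Homo 4 and 4 in Het 4, too few to read a separation from. Both groups overlapped WT, and Fgf21 was not part of the main edgeR fit. The count of 0 allows up to 0.136 CPM in Het 2 and up to 0.122 CPM in WT 6 (3 counts, counting error only).

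Genes of uptake and activation went in both directions. Cd36, the fatty acid translocase of the cell surface, was the only gene of the set above 1 at an unadjusted p under 0.05. Its levels were 12.8, 12.6, 14.1 and 13.7 CPM in Homo livers and 11.1, 9.78, 13.3 and 10.9 CPM in Het livers, against 10.2, 11.0 and 12.3 CPM (lowest, median, highest) in WT livers. Each Homo liver lay above each WT liver, where 0.735% of all genes did, and Het livers overlapped both. The log2 fold change of Cd36 was 0.24 (SE 0.0889) for Homo over WT, a fold of 1.18 (95% interval 1.03 to 1.35, edgeR adjusted p = 0.976).

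Markers of Kupffer cells, which also carry Cd36, were compared too. All 6 of 6 Kupffer markers (Clec4f, Adgre1, Cd5l, C1qb, Vsig4 and Marco) had a Homo over WT fold above 1, and their sum was 187 to 196 CPM in Homo livers, 151 to 190 CPM in Het livers and 153 to 176 CPM in WT livers. Of the sinusoidal endothelial markers, 5 of 6 had a fold above 1, with sums of 237 to 282 CPM in Homo livers, 235 to 273 CPM in Het livers and 224 to 252 CPM in WT livers. For Homo over WT in edgeR, 3 of 6 Kupffer markers and 1 of 6 endothelial markers were higher at an unadjusted p under 0.05. Of all genes, 2.64% were higher at that level, and 49.4% had a fold below 1. No marker on either list passed the adjusted threshold, and the part of these cells in the Cd36 result was not tested.

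The other uptake genes had Homo over WT folds below 1. Slc27a2 ran from 730 to 932 CPM in Homo livers, against 802 to 1119 CPM in WT livers, with a fold of 0.855 (95% interval 0.734 to 0.996). Fabp1, Acsl1 (the long-chain acyl-CoA synthetase) and Plin2 (a coat protein of lipid droplets) had folds of 0.940, 0.897 and 0.919, each with an interval that spans 1. In Fabp1, WT 1 reached 4628 CPM, while the other WT livers stayed between 2332 and 3533 CPM.

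Fabp1 was also the 1 gene whose searched window matched the element that PPARalpha and its partner bind, a direct repeat with 1 spacer base. The match held when 1 base of each repeat was left free, and sequence outside the windows was not searched. RefSeq windows from 250 bases before to 50 bases after the start (GRCm38.p6) were found for 31 of the 35 genes. The exact repeat, AGGTCA and again AGGTCA with any base N between them, searched on both strands, was in none of their windows and in 0.0396% of all 32851 windows. The looser repeat of AGGNCA with the same spacer, which includes the exact one, was in the Fabp1 window and in 0.381% of all windows. The stretch around it, at chr6:71199797-71199839 on the plus strand, is shown with the match in capitals, read here from the antisense side, from base -67 to base -55 relative to the start.
Fabp1: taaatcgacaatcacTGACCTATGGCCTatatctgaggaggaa
A match of letters is a description of the window and not evidence of binding.

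The 3 genes of mitochondrial entry were each lower in Homo livers than in WT livers by point estimate, with a median log2 fold change of -0.21. Cpt1a makes the acylcarnitine and is the controlled step of the pathway. It was at 304, 398, 406 and 369 CPM in Homo livers and at 362, 419, 407 and 450 CPM in Het livers, against 380, 396 and 466 CPM (lowest, median, highest) in WT livers. Homo 1 and Homo 4 were below the WT range and Homo 2 and Homo 3 inside it, and the fold for Homo over WT was 0.891 (95% interval 0.773 to 1.03). Cpt2, which hands the acyl group back to CoA inside, was at 69.3, 75.4, 88.8 and 72.5 CPM in Homo livers, against 79.6, 88.1 and 100.4 CPM in WT livers (lowest, median, highest). Homo 3 alone lay inside the WT range, and the fold was 0.866 (95% interval 0.770 to 0.975). For the carrier Slc25a20 the fold was 0.865.

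All 10 genes of the mitochondrial spiral had a Homo over WT fold below 1, and 5 of them an unadjusted p under 0.05. Over all genes tested those shares were 49.4% and 4.73%. Summed over the 10 genes, the level was 1305 ± 27.9 CPM in Homo livers (SD, n = 4), 1355 ± 37.3 CPM in Het livers (n = 4) and 1430 ± 78.3 CPM in WT livers (n = 6). Homo livers summed to 1273 to 1340 CPM and WT livers to 1316 to 1547 CPM, with only WT 6 at a level that a Homo liver reached. The medians of single genes were small: the median log2 fold change of the spiral was -0.13.

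Eci1, the mitochondrial isomerase that moves misplaced double bonds of unsaturated fatty acids, had the smallest p of the set. Its levels were 50.8, 43.9, 52.6 and 40.2 CPM in Homo livers and 49.8, 58.8, 45.8 and 53.3 CPM in Het livers, against 52.7, 56.1 and 62.0 CPM (lowest, median, highest) in WT livers. Each Homo liver was below each WT liver, by a margin of hundredths of a CPM between Homo 3 and WT 2, and 0.42% of all genes had every Homo liver below every WT liver. The log2 fold change was -0.28 (SE 0.0886), a fold of 0.823 (95% interval 0.722 to 0.938, edgeR adjusted p = 0.778). Eci1 lies on chromosome 17 close to Pkd1, with 8 coding genes between them, and the part of that position in its level was not tested.

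Decr1, the reductase that also prepares unsaturated chains for oxidation, was at 68.9, 64.1, 72.6 and 65.9 CPM in Homo livers and at 68.8, 73.8, 68.0 and 78.0 CPM in Het livers, against 72.3, 77.2 and 79.9 CPM (lowest, median, highest) in WT livers. Homo 3 alone reached the lowest WT value. Its log2 fold change was -0.18 (SE 0.0585) for Homo over WT, a fold of 0.881 (95% interval 0.808 to 0.961, edgeR adjusted p = 0.807).

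The dehydrogenases that open each turn each serve a range of chain lengths. Acadm, for medium chains, was at 114, 110, 110 and 106 CPM in Homo livers and at 116, 119, 112 and 116 CPM in Het livers, against 112, 125 and 141 CPM (lowest, median, highest) in WT livers. Homo livers were tightly grouped near the lowest WT liver, WT 6. Acadl, for long chains, was at 107, 98.4, 113 and 124 CPM in Homo livers and at 109, 128, 117 and 122 CPM in Het livers, against 112, 130 and 154 CPM (lowest, median, highest) in WT livers. The Homo over WT fold was 0.879 for Acadm (edgeR adjusted p = 0.892) and 0.840 for Acadl (edgeR adjusted p = 0.961). Acadvl, for very long chains, and Acads, for short chains, had folds of 0.996 (95% interval 0.883 to 1.12) and 0.975 (0.889 to 1.07). Differences between these enzymes were not tested.

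The later steps of the spiral had small offsets too. Hadha, the large subunit of the trifunctional protein, was at 181, 187, 196 and 182 CPM in Homo livers and at 177, 208, 181 and 187 CPM in Het livers, against 190, 201 and 214 CPM (lowest, median, highest) in WT livers. Homo 3 and Het 2 lay within the WT range and the other Homo and Het livers below it, with folds of 0.931 for Homo over WT (95% interval 0.851 to 1.02) and 0.939 for Het over WT (0.859 to 1.03). Its partner Hadhb had a Homo over WT fold of 0.920, and Acaa2, the thiolase of the matrix, one of 0.909 (log2 -0.14, SE 0.0624). Hadh, the short-chain hydroxyacyl dehydrogenase, was nearly constant among Homo livers, between 149 and 151 CPM, while WT livers spread from 142 to 177 CPM, and its fold was 0.914. The electron transfer genes Etfa, Etfb and Etfdh, which pass the electrons of the first step to the respiratory chain, had folds of 0.982, 0.959 and 0.889, none with an unadjusted p under 0.05.

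**Figure D3:**
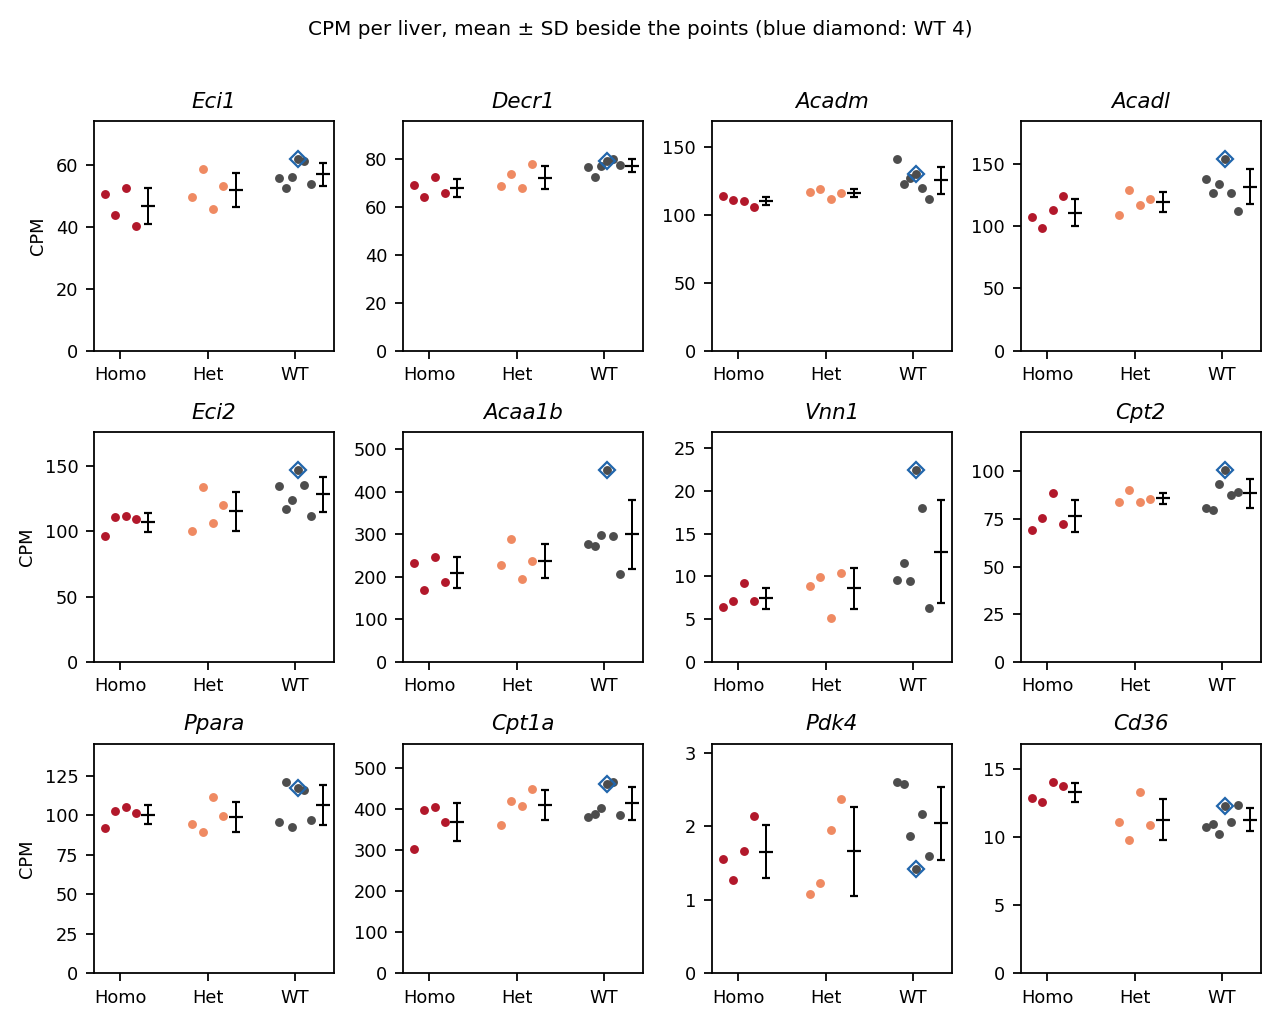
Points are CPM in each liver for 12 genes, with the mean and SD of each genotype as a bar beside them (Homo and Het n = 4, WT n = 6), and a diamond marks WT 4. Every Homo point of Eci1 lies below every WT point and every Homo point of Cd36 above, whereas Homo and WT points overlap in the other 10 panels.

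Entry, spiral and electron transfer together make the path from acyl-CoA to the respiratory chain. On that path 16 of 16 genes had a Homo over WT fold below 1 (49.4% of all genes did), with a median log2 fold change of -0.15. The count is 13 of 16 when counts are scaled by the library total alone, where Acadvl, Acads and Etfa come out above 1 by at most 0.03 on the log2 scale. It is 15 of 16 without Homo 1, WT 3 or WT 4.

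All 4 peroxisomal genes had a Homo over WT fold below 1, and 3 of them an unadjusted p under 0.05. Among all genes tested, 49.4% had such a fold and 4.73% such a p. The median log2 fold change of the 4 genes was -0.27. Acaa1b, a thiolase that ends each peroxisomal turn, had the lowest Homo over WT fold of the set after Vnn1. Its levels were 232, 170, 247 and 189 CPM in Homo livers and 227, 289, 194 and 237 CPM in Het livers, against 206, 286 and 450 CPM (lowest, median, highest) in WT livers. WT 4 at 450 CPM was far above the next WT liver at 298 CPM, and 5 of the 6 WT livers lay above every Homo liver. The log2 fold change was -0.52 (SE 0.180) for Homo over WT, a fold of 0.699 (95% interval 0.536 to 0.911, edgeR adjusted p = 0.943). Without WT 4 the log2 fold change of Acaa1b was -0.37 (SE 0.142).

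Ehhadh, the bifunctional enzyme of the middle steps, was at 75.6, 53.7, 54.3 and 67.1 CPM in Homo livers and at 64.2, 78.0, 58.3 and 65.5 CPM in Het livers, against 60.4, 77.1 and 91.3 CPM (lowest, median, highest) in WT livers. Homo 2 and Homo 3 were below the WT range, and the fold was 0.821 (95% interval 0.686 to 0.983). Eci2, the peroxisomal counterpart of Eci1, was at 96.1, 111, 111 and 109 CPM in Homo livers and at 100, 134, 106 and 120 CPM in Het livers, against 111, 129 and 146 CPM (lowest, median, highest) in WT livers. Its fold was 0.835 for Homo over WT (log2 -0.26, SE 0.0937, edgeR adjusted p = 0.976). Acaa1a, the close copy of Acaa1b, was at 60.2, 72.1, 69.4 and 52.0 CPM in Homo livers and at 76.4, 86.7, 71.2 and 66.4 CPM in Het livers, against 61.9, 71.6 and 76.2 CPM (lowest, median, highest) in WT livers. Homo 4 was the lowest and Het 2 the highest of the 14 livers.

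The transcripts of Acaa1a and Acaa1b share 96.6% of bases over 1428 aligned bases, so the split of reads between them is uncertain. Upstream of their starts the genes differ, which the 100 bases before each start show (RefSeq, GRCm38.p6, each read on its own gene's strand). Acaa1b lies at chr9:119157094-119157193 on the minus strand and Acaa1a at chr9:119341194-119341293 on the plus strand. Capitals mark a CCAAT box, found on the antisense side of Acaa1b and absent from this stretch of Acaa1a.
Acaa1b: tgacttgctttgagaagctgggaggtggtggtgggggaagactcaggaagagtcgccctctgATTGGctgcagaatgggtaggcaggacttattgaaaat
Acaa1a: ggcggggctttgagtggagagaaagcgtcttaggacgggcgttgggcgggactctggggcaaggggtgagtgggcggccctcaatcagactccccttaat
A CCAAT box on either strand was in the windows of 18 of the 31 matched genes (58.1%), against 41.1% of all genes with a window.

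The acyl-CoA thioesterases, which release free fatty acids from CoA, were low and very uneven among mice. Acot4 was at 17.9, 11.1, 12.7 and 30.2 CPM in Homo livers and at 12.2, 13.7, 15.3 and 15.5 CPM in Het livers, against 10.4, 24.6 and 28.7 CPM (lowest, median, highest) in WT livers. WT 1 to WT 4 lay at 23.7 CPM or more, whereas WT 5 and WT 6 lay with most Homo and Het livers. Acot3 split the WT livers in the same way, with WT 1 to WT 4 at 2.48 to 2.76 CPM and WT 5 and WT 6 at 0.798 and 0.368 CPM. Homo 4 was high in 3 of the 4 genes, at 13.4 CPM for Acot1, 8.78 CPM for Acot3 and 30.2 CPM for Acot4. The Homo over WT folds ran from 0.766 for Acot1 to 1.23 for Acot3, where the interval reached from 0.351 to 4.33. Without Homo 4 the log2 fold change was -1.12 for Acot1 (edgeR adjusted p = 0.645) and -2.18 for Acot3 (edgeR adjusted p = 0.635), so that liver sets the direction for Acot3. Acot1 and Acot2 share 95.1% of bases over 1274 aligned bases, and reads may be split between them.

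Pdk4 and Vnn1 are classic targets of PPARalpha. The fuel switch compartment is named for Pdk4, and Vnn1 is only grouped with it here. Vnn1, a pantetheinase of the hepatocyte surface, was at 6.37, 7.15, 9.22 and 7.08 CPM in Homo livers and at 8.89, 9.96, 5.14 and 10.4 CPM in Het livers, against 6.29, 10.6 and 22.4 CPM (lowest, median, highest) in WT livers. WT 4 and WT 5 were the highest livers, and 5 of the 6 WT livers lay above every Homo liver. The log2 fold change was -0.79 (SE 0.304) for Homo over WT, a fold of 0.578 (95% interval 0.368 to 0.906, edgeR adjusted p = 0.994), and it was -0.56 (SE 0.265) without WT 4. Pdk4 was at 1.55, 1.27, 1.66 and 2.14 CPM in Homo livers and at 1.09, 1.23, 1.95 and 2.37 CPM in Het livers, against 1.42, 2.02 and 2.61 CPM (lowest, median, highest) in WT livers. Its groups overlapped, with a fold of 0.807 for Homo over WT (95% interval 0.553 to 1.18) and 0.813 for Het over WT (0.557 to 1.19), and WT 4 had the lowest Pdk4 level among the WT livers.

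Het livers also lay slightly below WT livers in most of these genes. A fold below 1 was found in 28 of 34 genes, where 50% of all genes had one, with a median log2 fold change of -0.10. None of the 34 passed the adjusted threshold in edgeR (0.0556% of all genes did), and none of the 35 did in DESeq2. None had an unadjusted p under 0.05 in edgeR (4.67% of all genes did). In DESeq2, 2 of 35 had one (2.40% of all its genes did). The smallest unadjusted p values belonged to Vnn1 (fold 0.665, 95% interval 0.426 to 1.04), Acaa1b (fold 0.789, 0.606 to 1.03), Acot4 (fold 0.672, 0.428 to 1.05) and Acadm (fold 0.923, 0.841 to 1.01), each with an edgeR adjusted p of 0.998. No gene had every Het liver on 1 side of every WT liver, where 1.2% of all genes did. By compartment, the median log2 fold change of Het over WT was -0.02 for entry, -0.09 for the spiral, -0.18 for the peroxisome and -0.49 for the thioesterases.

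The count of Het genes at an unadjusted p under 0.05 turned on single livers. It was 6 of 34 without Het 2, where 5.17% of all genes were counted, and 5 of 34 without WT 6, where 4.69% were. The Homo and Het comparisons share the same 6 WT livers, so an unusual WT liver moves both.

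Homo livers differed less clearly from Het livers. Of the 34 genes, 23 came out below 1 in Homo over Het (49.5% of all genes), with a median of -0.07 on the log2 scale, and no gene passed the adjusted threshold in edgeR (0.0309% of all genes did) or DESeq2. At an unadjusted p under 0.05 there were 2 genes in edgeR, where 5.1% of all genes were counted. DESeq2 had 3 of 35 (2.64% of all its genes). The 2 were Cd36 (log2 0.24, SE 0.0984, fold 1.18, edgeR adjusted p = 0.950) and Acaa1a (log2 -0.24, SE 0.107, fold 0.844, edgeR adjusted p = 0.958). Hadh was the 1 tested gene whose groups did not overlap, with Homo livers at 149 to 151 CPM and Het livers at 155 to 167 CPM (fold 0.938, 95% interval 0.842 to 1.05), where 2.94% of all genes did not overlap. All 3 entry genes and 9 of 10 spiral genes had a Homo over Het fold below 1, and all 4 thioesterases had one above 1. Without Homo 4, 3 of the 4 thioesterases (Acot1, Acot3 and Acot4) came out below 1. With the library total alone as the scale, 18 of the 34 genes had a Homo over Het fold below 1 and the median was -0.00 on the log2 scale.

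A fit with genotype as steps of 0 for WT, 1 for Het and 2 for Homo gave a log2 change below 0 per step in 31 of 34 genes (49.2% of all genes), with a median of -0.07 per step. None was called in edgeR (0.185% of all genes were) or DESeq2. At an unadjusted p under 0.05 edgeR counted 12 of 34 (4.72% of all genes). DESeq2 counted 14 of 35 (2.50% of all its genes). Eci1 had the smallest adjusted p, 0.668, with a log2 change of -0.14 per step (SE 0.0424).

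By summed CPM over the 35 genes, WT 1 was the highest liver at 9549 CPM and WT 4 came next at 9435 CPM. Fabp1 alone gave 4628 CPM of the sum in WT 1 and 3533 CPM in WT 4, so this ranking leans on that gene. Gene by gene, WT 4 was most often the highest. It lay above the WT mean in 33 of 34 genes and was the highest of all 14 livers in 15 of them (44.1%), against 6.27% of all genes. Those included Acaa1b, Ehhadh, Eci1, Cpt2, Slc25a20, Acadl, Hadha and Vnn1. Homo 1 and Homo 2 were each the lowest liver in 7 genes, and Homo 4 in 5. The number of genes below the WT mean was 30, 29, 23 and 26 of 34 in Homo livers, 29, 21, 28 and 25 in Het livers and 19, 24, 16, 1, 17 and 24 in WT 1 to WT 6. The counts for WT 2 and WT 6 lay within the range of the Homo livers. The WT mean is over all 6 WT livers, so WT 4 raises it, and each WT liver is compared with a mean that includes itself. Counts against a mean without WT 4 were not made.

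**Figure D4:**
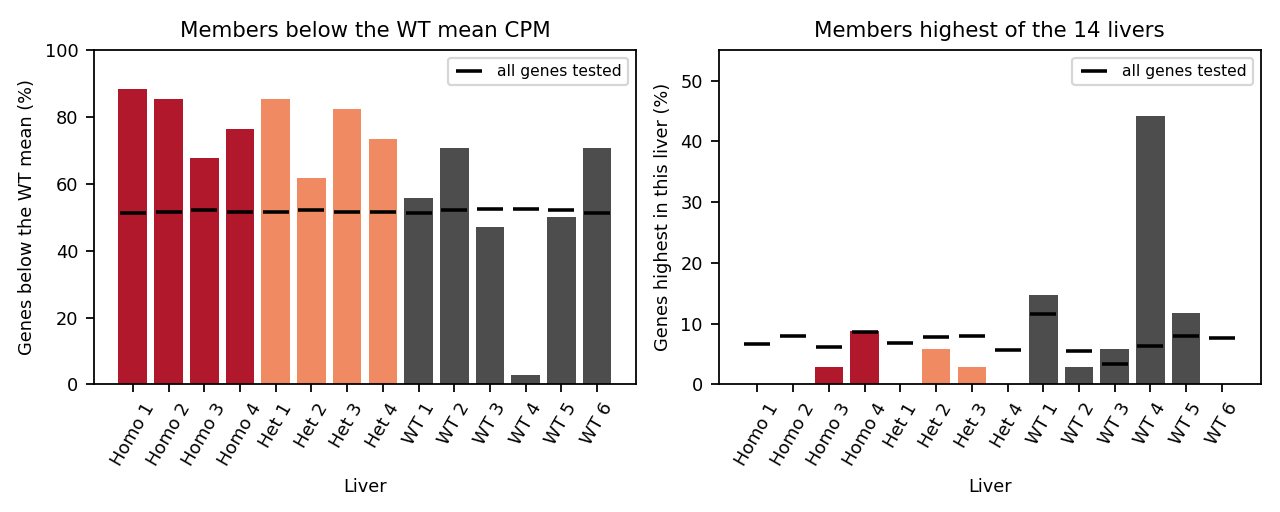
Bars give, for each liver, the percentage of the 34 genes below the WT mean CPM (left) and at their highest level of all 14 livers (right). The WT mean is over all 6 WT livers, WT 4 included. Black dashes give the same percentages for all 16201 genes tested. WT 4 has 2.94% of the genes below the WT mean and 44.1% at their highest level, while all 16201 genes give 52.4% and 6.27% in that liver.

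Without WT 4 the offset kept its direction and was smaller. Of the 34 genes, 29 came out below 1 in Homo over WT (49.2% of all genes did), with a median of -0.13 on the log2 scale. In edgeR 8 had an unadjusted p under 0.05, where 4.24% of all genes did. Those were Cpt2, Acadl, Acadm, Decr1, Eci1, Acaa1b and Eci2, all lower, and Cd36, higher, where 1.84% of all genes were lower at that level. For Het over WT without WT 4, 25 of 34 folds were below 1 (49.5% of all genes were) with a median of -0.08. WT 4 had 25907408 counts, within the range of the other WT livers, and a mitochondrial share of 11.3% of counts, within the 10.1% to 12.5% of WT livers.

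Beyond the set, 82 further genes of the pathway were examined in 5 lists, and 78 were tested. In Homo over WT, 49 of the 78 came out below 1 (49.4% of all genes did), with a median of -0.05 on the log2 scale. In edgeR 10 had an unadjusted p under 0.05, all lower, where 4.73% of all genes were counted and 2.09% were lower. For Het over WT, 50% of all genes had a fold below 1, and these shares apply to the lists below too. A single gene passed the adjusted threshold in Homo over WT, where 0.222% of all genes did. Decr2, the peroxisomal reductase for unsaturated chains and counterpart of Decr1, fell to 65.7, 61.0, 76.6 and 84.8 CPM in Homo livers and was at 81.3, 106, 99.7 and 101 CPM in Het livers, against 99.3, 115 and 141 CPM (lowest, median, highest) in WT livers. Each Homo liver was below each WT liver, which held for 0.42% of all genes. The fold was 0.614 (log2 -0.70, SE 0.112, 95% interval 0.520 to 0.725, edgeR adjusted p = 0.0113). The adjusted p was 0.0669 without Homo 1, 0.0536 without Homo 2 and 0.0220 without WT 4. Decr2 lies on chromosome 17, with 76 coding genes between it and Pkd1, and the part of that position in its level was not tested.

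Among other peroxisomal oxidation genes most had a lower point estimate in Homo livers. Of 16 genes, 14 had a Homo over WT fold below 1, with a median log2 fold change of -0.16. Hsd17b4, the multifunctional enzyme of branched chains, had a Homo over WT fold of 0.893 (95% interval 0.812 to 0.981). Crat, the carnitine acetyltransferase, had folds of 0.772 (Homo over WT) and 0.793 (Het over WT), and Acox2, the oxidase of bile acid side chains, had folds of 0.970 (Homo over WT) and 1.10 (Het over WT), with no unadjusted p under 0.05 for either gene.

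Ketogenesis had 4 of 5 genes with a Homo over WT fold below 1 and 5 of 5 with a Het over WT fold below 1. Acat1, the thiolase that joins 2 acetyl-CoA, had folds of 0.943 (Homo over WT) and 0.932 (Het over WT). Bdh1, which reduces acetoacetate, had folds of 0.914 (Homo over WT) and 0.881 (Het over WT). Slc16a1, a monocarboxylate exporter, had folds of 1.10 (Homo over WT) and 0.878 (Het over WT).

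Further mitochondrial oxidation genes were evenly split, with 10 of 18 Homo over WT folds below 1. Acad11, a dehydrogenase for very long chains, averaged 215 ± 13.7 CPM in Homo livers and 250 ± 17.9 CPM in WT livers, with a fold of 0.861 (95% interval 0.776 to 0.956). Hsd17b10, a short-chain dehydrogenase of the matrix, had a fold of 0.901 (95% interval 0.817 to 0.993). Acsm5, a medium-chain acyl-CoA synthetase, had a fold of 1.13 for Homo over WT. In Het over WT the smallest p values were those of Acsm1 (another medium-chain synthetase, fold 1.10), Ivd (the dehydrogenase of leucine breakdown, fold 1.11) and Mmut (the methylmalonyl-CoA mutase, fold 1.10), none with an unadjusted p under 0.05.

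Among omega oxidation genes and other PPARalpha targets, 14 of 21 tested genes had a Homo over WT fold below 1. Retsat, a retinol saturase, averaged 76.7 ± 9.53 CPM in Homo livers, 83.2 ± 18.8 CPM in Het livers and 105 ± 15.7 CPM in WT livers, with folds of 0.728 for Homo over WT (edgeR adjusted p = 0.732) and 0.789 for Het over WT (95% interval 0.642 to 0.970). Mgll, the monoglyceride lipase, and Fabp2, a fatty acid binding protein, had Homo over WT folds of 0.824 and 0.817. G0s2, an inhibitor of triglyceride lipase, averaged 30.1 ± 5.02 CPM in Homo livers, 15.3 ± 9.97 CPM in Het livers and 29.3 ± 7.43 CPM in WT livers, with a Het over WT fold of 0.521 (edgeR adjusted p = 0.977). Cidec, a lipid droplet protein, had a Het over WT fold of 0.549 with an interval from 0.287 to 1.05. Cyp4a10, the omega hydroxylase most used as a readout of PPARalpha activity in mice, was chosen after its values were seen. It was at 3.00, 4.17, 2.91 and 20.9 CPM in Homo livers, at 2.55, 31.0, 3.27 and 4.83 CPM in Het livers and at 7.44, 26.2, 21.6, 97.5, 22.2 and 4.94 CPM in WT 1 to WT 6. Its highest liver was again WT 4, and 20 CPM or more was reached in 1 of 4 Homo livers, 1 of 4 Het livers and 4 of 6 WT livers. The log2 fold change of Cyp4a10 was -1.995 for Homo over WT (SE 0.934, edgeR adjusted p = 0.998), and it was -3.16 without Homo 4 and -1.13 without WT 4.

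The partners and cofactors of the receptor went in both directions. In Homo over WT 7 of 18 had a fold below 1, with a median log2 fold change of 0.01, and none had an unadjusted p under 0.05. The Homo over WT folds were 1.08 for Rxrb, a retinoid X receptor, 0.950 for the corepressor Ncor1 and 1.19 for the coactivator Ppargc1b. In Het over WT the coactivator Ppargc1a had a fold of 1.37 (95% interval 0.973 to 1.92), Rxrg one of 0.755 (0.467 to 1.22) and Ncoa1 one of 1.04 (0.955 to 1.13).

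Levels of paired genes across the 14 livers were compared for 7 pairs of members. The strongest relation was that of Ehhadh and Acaa1b (Pearson r = 0.721, permutation p = 0.0029, Benjamini-Hochberg adjusted over the 7 pairs 0.0203, Spearman rho = 0.714, permutation p = 0.00572, adjusted 0.0400). Among deviations from the genotype means r was 0.572. Without the 2 livers farthest from the median Ehhadh level, Homo 2 and WT 4, r was 0.446 (permutation p = 0.147), and it was 0.590 without WT 4 alone and 0.633 within the 6 WT livers. For Acadm and Hadha r was 0.667 (permutation p = 0.0102, adjusted 0.0358) and rho 0.622 (permutation p = 0.0203, adjusted 0.0710). Their r was 0.575 without WT 1 and WT 4 (permutation p = 0.0538), and 0.626 within the 6 WT livers. Among deviations from the genotype means it was 0.442. The permutations did not keep genotypes apart, so all these p-values include differences between genotypes. For Ppara no relation passed: r was 0.487 with Cpt1a (permutation p = 0.0661, adjusted 0.154) and 0.360 with Pdk4 (permutation p = 0.201, adjusted 0.267).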

How the data were processed

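Liver RNA was extracted with Trizol and RNeasy columns and made into libraries with a NuGen Ovation mouse kit, per the labels' protocols. The authors deposited 1 table of estimated counts per gene, 1 column per library, and the submitters' processing notes name STAR, Salmon and the genome build GRCm39. Versions, annotation and strand setting were not given in the sources used here. Between 6.36% and 8.59% of values per library lay more than 0.01 from a whole number, and they were rounded. No other sample's columns were present (0).

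Genes were kept by edgeR's filterByExpr (minimum count 10, total 15), scaled by TMM, and tested in 1 quasi-likelihood fit over the 14 libraries (R 4.3.3, edgeR 4.0.16, limma 3.58.1), with contrasts Homo over WT, Het over WT, Homo over Het and a trend (WT 0, Het 1, Homo 2). P-values were adjusted by Benjamini-Hochberg over all 16201 genes, with a threshold of 0.05, and intervals are 95%. CPM divides counts by the TMM-scaled library total. Each library is 1 numbered mouse, so the p-values measure the spread between these libraries. With simulated counts, the scripts were tested on known changes. Precision is limited by the library totals, the lowest 18573739 counts, and any counting limit covers counting error only. No pair of libraries agreed within sampling noise (smallest chi-square per degree of freedom 24.5 over 91 pairs).

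The genes and all lists were chosen with earlier results of these data known. Values in every Homo and Het library, with the lowest, median and highest of the WT libraries, are given for Ppara, Cpt1a, Pdk4, Fgf21, Ehhadh, Acaa1b, Acadm and Hadha, for the 6 smallest p in Homo over WT, the 4 in Het over WT and the 2 in Homo over Het. From each list of other pathway genes, the 3 with the smallest p in Homo over WT and in Het over WT are named, and any called. Some genes that this rule would name are not reported here, though they count in their lists. Correlations used 100000 permutations, two-sided (Python 3.11.15, scipy 1.17.1). Alternatives were DESeq2 1.42.0, its size factors, library totals alone, other filters, the compared genotypes alone, a replicate block, and leaving out each library. Replicate numbers were not used as pairs in the main fit. Of 12 same-numbered pairs, 2 had a correlation of deviations over 0.1 (lowest -0.092, highest 0.149). These correlations cannot tell whether same-numbered mice shared a litter or batch. Transcript lengths, gene order and chromosomes came from GENCODE M21 (GRCm38), alignments from BLAST 2.17.0 and promoters from RefSeq (GRCm38.p6), and these were not mixed with the GRCm39 counts by position.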

Additional observations from a re-analysis of the deposited data

Results flagged for a closer look

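A search of 62 genes over the 3 genotypes covered 186 groups of 4 or 6 livers. By Dixon's test 10 groups held 1 liver far from the rest, where chance flags about 1 in 20 groups, or 9.3 here. The 62 genes include Cyp4a10, chosen after its values were seen, and other pathway genes picked by small p. The count of flags is therefore not a fair comparison with chance. Among the oxidation genes, Acot3 was at 8.78 CPM in Homo 4, against 0.693 CPM in the next Homo liver, and at 1.79 CPM in Het 3, against 0.546 CPM in the next Het liver. Fgf21 was at 0.572 CPM in Homo 2, with the next Homo liver at 0.302 CPM, from 14 counts. Eci2 was low in Homo 1, at 96.1 CPM with the next Homo liver at 109 CPM. Creb3l3 was high in Het 2, at 231 CPM with the next Het liver at 206 CPM. Among the other pathway genes, Cyp4a10 had 1 high liver in each genotype: 20.9 CPM in Homo 4 (next 4.17 CPM), 31.0 CPM in Het 2 (next 4.83 CPM) and 97.5 CPM in WT 4 (next 26.2 CPM). Ivd was high in Het 3, at 109 CPM with the next Het liver at 89.5 CPM. Hsd17b4 was low in WT 2, at 305 CPM with the next WT liver at 348 CPM.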

How the results depend on the processing

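No gene of the set was called by edgeR or DESeq2 under any alternative run. Over all genes, the number called for Homo over WT, 36 by edgeR, was 63 in DESeq2, 19 with the replicate block and 23 (without Homo 1) to 40 (without Het 1) when 1 library was left out. For Het over WT, 9 by edgeR, it was 23 with no filter on low counts, 34 in DESeq2 and 8 to 11 with 1 library left out. For Homo over Het, 5 by edgeR, it was 20 in DESeq2, 2 with the replicate block, 2 with only these genotypes fitted and 4 to 7 with 1 library left out. The trend, 30 by edgeR, gave 53 in DESeq2, 11 with the replicate block and 19 (without WT 1 or WT 6) to 33 (without Het 1) with 1 library left out. The cause of these shifts was not tested. Replicate numbers share no stated origin. Libraries numbered 1 to 4 were compared between genotypes, so each had 4 candidates. In 3 of 12 such comparisons the best correlation was with the same number. Of the 34 genes, 29 to 33 had a Homo over WT fold below 1 with 1 library left out, 32 with the replicate block and 27 with library totals alone, which moves the all-gene median by 0.04 on the log2 scale. The 12 genes at an unadjusted p under 0.05 in that comparison became 8 without Homo 1 or WT 4. For Het over WT, where there were 0, the count was 6 with the replicate block (5.43% of all genes) and 0 to 6 with 1 library left out. Low counts limit Fgf21, Acot2, Acot3 and Pdk4.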
